A study of Mus musculus with 3 samples.

Results

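MicroRNA levels of Müller glia (MG) after light damage (LD) were compared directly with those of MG that had lost Dicer. The comparison took in every miRNA of the panel whose mean over the LD sample and the Dicer-cKO sample was at least 100 normalized counts, which left 95 of 602 miRNAs. They held 98.8% of the summed miRNA counts of the LD sample and 96.3% of those of the Dicer-cKO sample. The lowest mean inside the limit was 102.5, and the highest outside it was 99.50. The question was where the miRNA profile of glia that react to an injury differs from that of glia in which miRNA maturation was switched off.

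The LD sample was a pool of 44 retinas from Rlbp1-CreER:tdTomato mice, crossed into an albino Swiss Webster background, that had been kept under 10000 lux for 8 h and were taken 7 days later. The Dicer-cKO sample was a pool of 26 retinas from Rlbp1-CreER:tdTomato:Dicer f/f mice taken 1 month after deletion. A pool of 40 undamaged retinas gave the wild type values. They enter no ratio of LD to Dicer-cKO and are given beside the others to show the order of the samples. All mice received tamoxifen at 75 mg/kg as adults of 2 to 3 months, so that the Rlbp1 promoter, active in MG, switched on the tdTomato reporter and, where the floxed alleles were present, removed part of Dicer. The tdTomato+ cells were sorted, and their RNA was counted by NanoString nCounter, which hybridizes bar-coded probes and needs no amplification.

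Each condition was thus 1 pooled sample. No test across samples was possible, and every ratio below compares these pools. The 95% intervals are exact and cover counting error only, so they say nothing about the spread between mice. Strain background, light, Dicer genotype and the measurement series, since the wild type and Dicer-cKO data came from earlier work of the same laboratory, cannot be told apart. Neither can fewer cells of a type and less RNA per cell.

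As background, a miRNA is cut from its hairpin precursor by the enzyme Dicer, and its seed, the bases near the 5′ end, pairs with target mRNAs and lowers their output. Loss of Dicer stops the supply of new mature miRNAs, while those already made persist for as long as they are stable. MG span the retina, support its neurons and become reactive after injury. Several of the miRNAs abundant in MG, among them miR-204, miR-9, miR-125b and the let-7 family, are known from the control of neural progenitor and glial states.

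The files identify miRNAs by miRBase numbers alone, and 26 of the 95 could be named through the order and heights, read by eye, of the bars that the study published for them. The other 69 are given by number. The names let-7a, let-7b, let-7d, let-7e, miR-23a, miR-30c, miR-30d and miR-335-5p rest on the bars alone. They were not checked against miRBase. Of the named miRNAs, 21 had a mature sequence in RefSeq (GRCm38.p6). Among these were 13 different seeds, 4 of them shared by more than one named miRNA. The sequences below are those on which the comparison turns: the families whose members share a seed yet differed in their ratio, and the singly named miRNAs of high count or of high or low ratio. Capitals mark the seed, bases 2 to 8 from the 5′ end.
let-7a-5p: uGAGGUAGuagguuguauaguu
let-7b-5p: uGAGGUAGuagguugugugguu
let-7c-5p: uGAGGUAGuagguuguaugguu
let-7d-5p: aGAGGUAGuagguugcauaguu
let-7e-5p: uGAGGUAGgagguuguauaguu
let-7g-5p: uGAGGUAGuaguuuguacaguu
miR-125a-5p: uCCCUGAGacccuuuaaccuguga
miR-125b-5p: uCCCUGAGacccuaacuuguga
miR-99a-5p: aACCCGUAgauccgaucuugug
miR-100-5p: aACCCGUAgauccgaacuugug
miR-29a-3p: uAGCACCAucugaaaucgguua
miR-29b-3p: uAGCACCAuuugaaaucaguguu
miR-204-5p: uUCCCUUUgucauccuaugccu
miR-9-5p: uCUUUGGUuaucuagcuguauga
miR-181a-5p: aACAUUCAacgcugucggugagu
miR-22-3p: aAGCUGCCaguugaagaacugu
miR-16-5p: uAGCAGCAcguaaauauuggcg

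The same miRNAs dominated both samples. miR-204, miR-9, miR-125b-5p and miR-720 stood among the 5 highest of each, and the 10 highest of each had 9 in common. The exceptions were let-7b, in the LD list only, and miR-124, in the Dicer-cKO list only. Over the 95 miRNAs the deposited values of both samples were related (Spearman's rho = 0.77 across miRNAs, which are not independent replicates). The 5 highest miRNAs held 64.6% of all counts of the LD sample, of which miR-720 alone made up 36.9%, and 45.9% of those of the Dicer-cKO sample, of which miR-720 made up 5.60%.

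In the deposited values, which were scaled to 4 housekeeping mRNAs, the LD value divided by the Dicer-cKO value had a median of 1.68 (quartiles 0.795 and 2.78), and the ratios ran from 0.0516 to 39.1. At least 2-fold higher in the LD sample were 39 miRNAs, 41.1% of those compared, and at least 2-fold lower were 15, or 15.8%. Counting error alone left 54 miRNAs above a ratio of 1, 25 below it and 16 with an interval that included 1. Among the 34 miRNAs of mean at least 1000 the median ratio was 2.05. It was 1.41 for the 24 between 300 and 1000 and 1.31 for the 37 below. The 26 named miRNAs had a median of 2.05, with 13 at least 2-fold higher and 1 at least 2-fold lower, and the 69 numbered ones had a median of 1.31, with 26 and 14. Named miRNAs had been picked by the study for their high counts in wild type or LD samples, so the sets are not compared further.

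**Figure D1:**
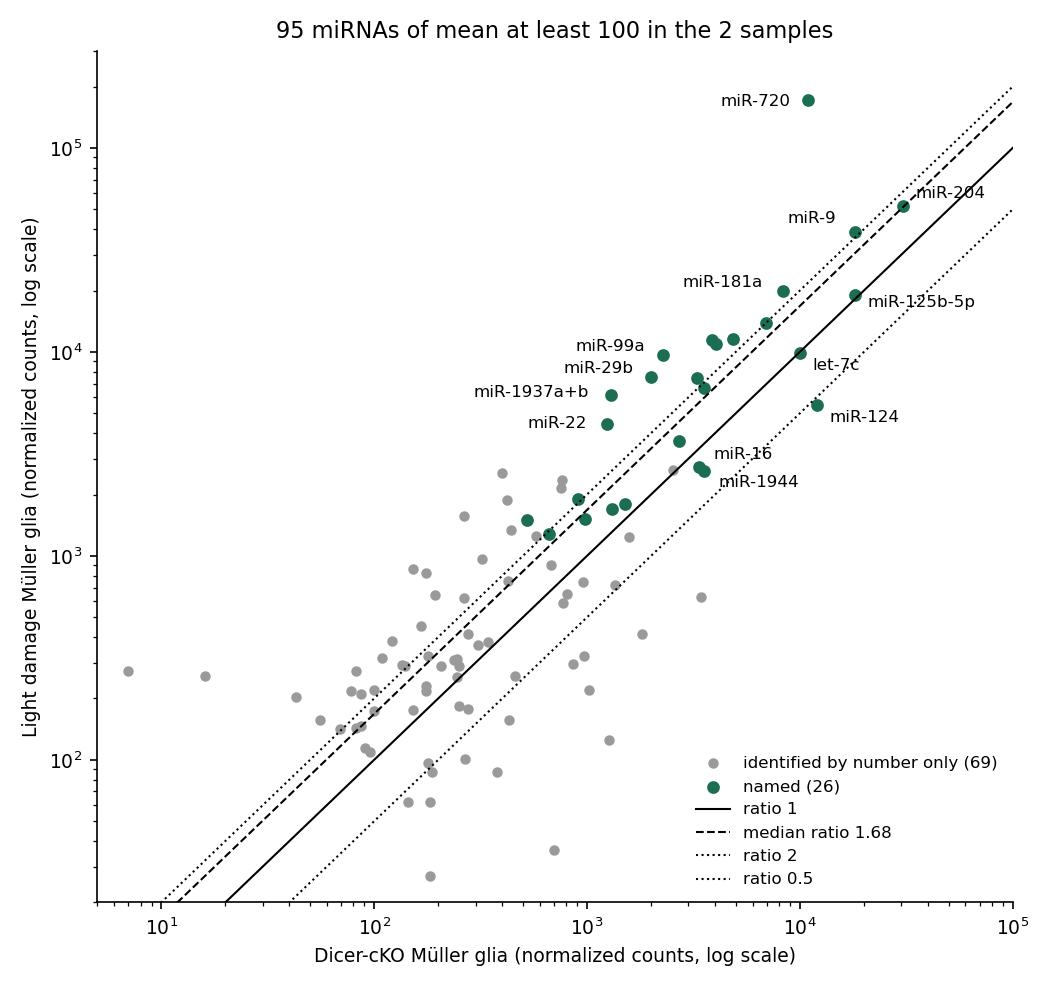
Normalized counts of 95 miRNAs in the LD sample (vertical axis, log scale) against the Dicer-cKO sample (horizontal axis, log scale), with lines at ratios of 0.5, 1 and 2 and at the median ratio of 1.68 of the deposited values. Each point is 1 miRNA; miR-720 lies far above the band of the other abundant miRNAs, and miR-124 lies below the line of ratio 0.5.

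How many miRNAs counted as higher or lower depended on the scaling. The housekeeping mRNAs themselves did not move together: LD over Dicer-cKO came to 1.13 for Actb, 0.611 for Gapdh, 1.81 for Rpl19 and 0.804 for B2m. Any other scaling multiplies all 95 ratios by 1 common factor. With Gapdh as the only reference 59 miRNAs were at least 2-fold higher and 7 at least 2-fold lower, and with Rpl19 alone the counts were 12 and 26. Setting the summed miRNA counts equal gave 6 and 36, with a median ratio of 0.701, and leaving miR-720 out of that sum gave 15 and 24, with a median of 1.05. The direction of the median therefore was not fixed by these data. The order of the miRNAs and, over a given set of miRNAs, the distance of each from the median do not depend on the scaling, because a common factor leaves them as they are. For this reason the relative log2 ratio, the log2 ratio of a miRNA minus the median log2 ratio of 0.75, is given below beside the deposited values. Over the 12 scalings computed, 29 miRNAs had a ratio above 1 in every one, 9 of them named: miR-720, miR-1937a+b, miR-99a, miR-29b, miR-22, let-7b, miR-100, miR-29a and miR-181a. Below 1 in every scaling were 2 miRNAs, both identified by number, and 11 were below 1 in the 11 scalings that did not use nmiR rows. The panel has 6 nmiR rows, whose target is not stated, and the scaling used those above 100.

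**Figure D2:**
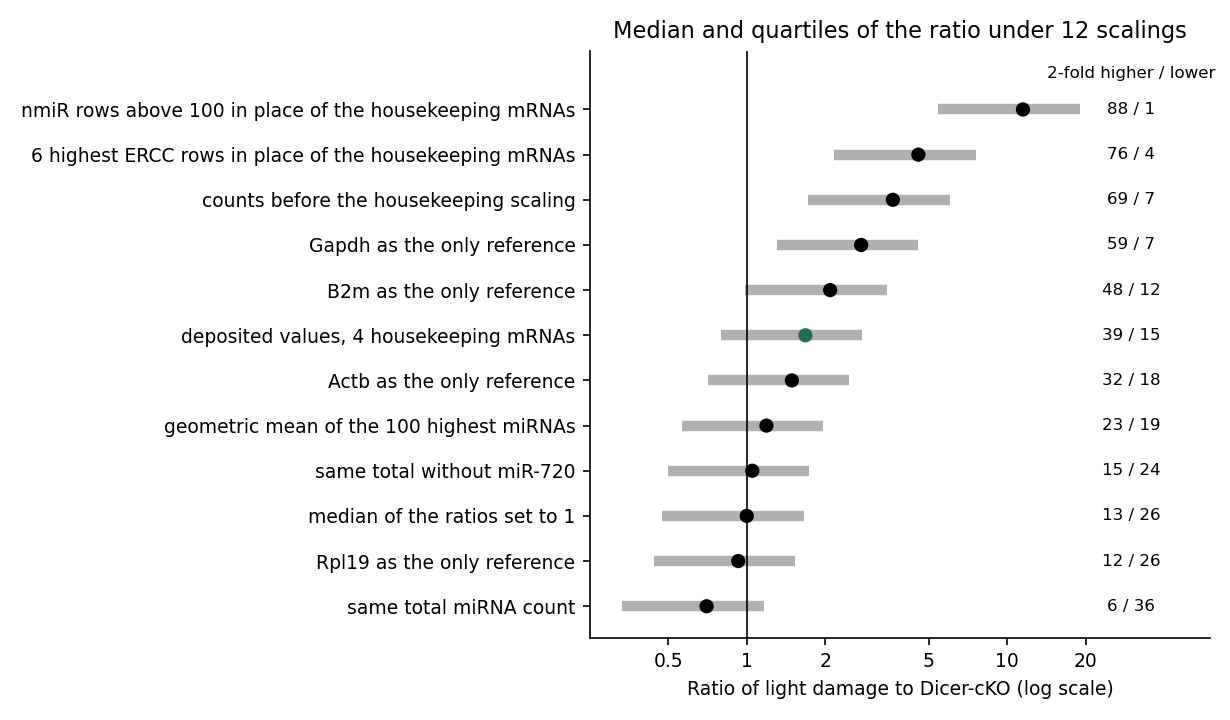
Median ratio of LD to Dicer-cKO (points, log scale) with quartiles (bars) over the 95 miRNAs under 12 scalings, with the numbers of miRNAs at least 2-fold higher and lower printed at the right; the deposited scaling is in green. The median runs from 0.701 with equal totals to 11.5 with the nmiR rows as reference.

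The mGliomiRs are 7 miRNAs that the study's earlier work found much higher in MG than in retinal neurons. All 7 were named, their median ratio was 2.15, 5 lay above the median of the 95 miRNAs and 2 below, and 4 were at least 2-fold higher in the LD sample against the 41.1% of all members. miR-204, which is also known from the retinal pigment epithelium, was counted at 51963 in the LD, 30438 in the Dicer-cKO and 285706 in the wild type sample. Its ratio of 1.71 (1.66–1.75) lay at the median of all members (relative log2 ratio 0.02), and both pools stood far below the wild type pool. miR-9, a miRNA of neural progenitors and glia, reached 38870, 18100 and 75416, a ratio of 2.15 (2.08–2.22). miR-125b-5p showed 19063 counts after LD and 18202 in Dicer-cKO MG, with 109596 in wild type. That ratio, 1.05 (1.01–1.09), placed it among the lowest of the abundant miRNAs, with a relative log2 ratio of −0.68. Of the other members, miR-23a lay between miR-125b-5p and miR-204, and the rest lay above miR-9. miR-99a was counted at 9626 after LD and 2284 in the Dicer-cKO sample (wild type 19815), and its ratio of 4.21 (3.85–4.62) was the highest of the 7. miR-100, with the same seed, was counted at 1507, 524 and 5626, a ratio of 2.88 (2.36–3.50). Both kept a ratio above 1 in all 12 scalings. miR-135a gave 11626, 4865 and 12833 counts and a ratio of 2.39 (2.24–2.55), and miR-23a gave 1796, 1515 and 3327 and a ratio of 1.19 (1.04–1.35). miR-99a and miR-125b-5p marked the ends of the set, and the other 5 lay between them.

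The shared miRs are 7 miRNAs that the same earlier work found at similar levels in MG and neurons. Their median ratio was 2.25, 6 lay above the median of all members, and 4 were at least 2-fold higher in the LD sample, beside 41.1% of all members. miR-181a, the most counted of them in the LD sample, showed 19965 counts there, 8300 in the Dicer-cKO sample and 48829 in wild type, a ratio of 2.41 (2.29–2.53). miR-30c was counted at 7419, 3296 and 13955, a ratio of 2.25 (2.08–2.44), and its family member miR-30d at 1910, 909 and 4676, a ratio of 2.10 (1.80–2.45). These 2 miR-30 members did not differ from each other beyond counting error, since the ratio of their ratios was 1.07 (0.900–1.28). The exception among the shared miRs was let-7c, described next with its family.

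The let-7 family restrains proliferation and developmental programmes by repressing targets such as Lin28 and Myc, and 6 of the 9 members listed for it were named. The others may stand among the numbered miRNAs, so the values here are not those of the whole family. The 6 named members split evenly around the median of all members, 3 above and 3 below, with a median ratio of 1.70. let-7b was counted at 11425 after LD and 3875 without Dicer (wild type 18043), a ratio of 2.95 (2.74–3.17). let-7c was counted at 9888 and 9984 (wild type 26178), a ratio of 0.990 (0.942–1.04). In the deposited values let-7b thus lay far apart in the 2 samples and let-7c side by side, whereas with equal totals the ratios were 1.23 and 0.414. let-7g had 13871 and 6952 counts and a ratio just under 2 (1.89–2.11), and let-7d had 6634 and 3557 and a ratio of 1.87 (1.73–2.02). Lower ratios were seen for let-7e, with 1521 and 984 counts (1.55, 1.33–1.80), and let-7a, with 3648 and 2704 counts (1.35, 1.23–1.48). In the deposited values all 6 members were highest in the wild type sample, where let-7g reached 15643, let-7d 13294, let-7e 3790 and let-7a 8129.

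These differences within a family do not depend on the scaling, because the common factor cancels when 1 ratio is divided by another. Of the 15 pairs that the 6 let-7 members form, which reuse the same 6 ratios, 13 differed beyond counting error. No share over all pairs of members was computed to set beside this count. Among the 6 named members the largest difference was that of let-7b and let-7c, with a ratio of ratios of 2.98 (2.73–3.25). Their mature sequences differ by only 1 base, A17G, counted from the 5′ end of let-7c. let-7c and let-7a differ by G19A and had a ratio of ratios, let-7a over let-7c, of 1.36 (1.23–1.51). let-7a and let-7e, which differ by U9G, did not differ beyond counting error (1.15, 0.957–1.37). Probes for sequences this close can share counts, and how far they did here was not tested. In the miR-125 family miR-125a-5p, with 1275 counts after LD, 661 in Dicer-cKO and 5639 in wild type MG, had a ratio of 1.93 (1.61–2.31), which was 1.84 times (1.53–2.22) that of miR-125b-5p. For miR-99a and miR-100, which differ by U16A, the ratio of ratios was 1.47 (1.18–1.83). Over all 19 pairs within families, 16 differed beyond counting error. The larger ratio was always placed first, so that no ratio of ratios lies below 1, and their median was 1.48. The share of differing pairs over all members was not computed, so these counts are not read as a trait of families.

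Several of the named miRNAs lie close together in the genome and can be made from 1 primary transcript. Among the mature loci within 100 kb on the same strand there were 9 pairs, and 7 differed between the LD and Dicer-cKO samples beyond counting error. let-7c, miR-125b-5p and miR-99a each stand in more than 1 of these pairs. The share among miRNAs that are not neighbours was not computed, so the count is not read as a trait of clusters. The widest gap was on chromosome 16 (GRCm38.p6, plus strand), where miR-99a is encoded at chr16:77598940-77598961, let-7c at chr16:77599672-77599693 and miR-125b-5p at chr16:77646279-77646300. miR-99a and let-7c are 0.711 kb apart, and their ratio of ratios was 4.26 (3.83–4.73). Within a sample, counts of miR-99a divided by those of let-7c came to 0.974 after LD, 0.229 in Dicer-cKO and 0.757 in wild type MG. For this pair the Dicer-cKO sample stood apart. miR-99a against miR-125b-5p gave 4.02 (3.64–4.44), with 0.505 after LD, 0.125 in Dicer-cKO and 0.181 in wild type MG. For that pair the LD sample stood apart instead. let-7c and miR-125b-5p from the same cluster did not differ between the LD and Dicer-cKO samples beyond counting error (1.06, 0.994–1.13). Both let-7c and miR-125b-5p have another copy elsewhere, let-7c 0.688 kb from let-7b at chr15:85706616-85706637 and miR-125b-5p 50.5 kb from miR-100 at chr9:41581940-41581961, and the counts do not separate the copies. miR-100 against miR-125b-5p gave 2.75 (2.24–3.36), so both miR-99/100 members had a higher ratio than their miR-125b neighbour.

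The remaining clusters showed smaller differences, and at least miR-29b and miR-135a among their members have a copy on another chromosome that the counts do not separate. The table of loci used is not complete, so further copies may exist. miR-29b and miR-29a, 0.331 kb apart on chromosome 6, gave a ratio of ratios of 1.38 (1.23–1.56), and let-7d and let-7a, 2.14 kb apart on chromosome 13, also gave 1.38 (1.22–1.56). miR-135a and let-7g, 24.7 kb apart on chromosome 9, gave 1.20 (1.10–1.30). For miR-125a-5p and let-7e, 0.430 kb apart on chromosome 17, the interval included 1 (1.25, 0.981–1.58). In 6 of the 9 pairs, which share members, the wild type value lay between those of the LD and Dicer-cKO samples. Counting error was not applied to this order, and some gaps were small. For miR-135a over let-7g the values were 0.838 after LD and 0.820 in wild type MG. No share over other pairs was computed, so the count is not read as a trait of clusters.

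**Figure D3:**
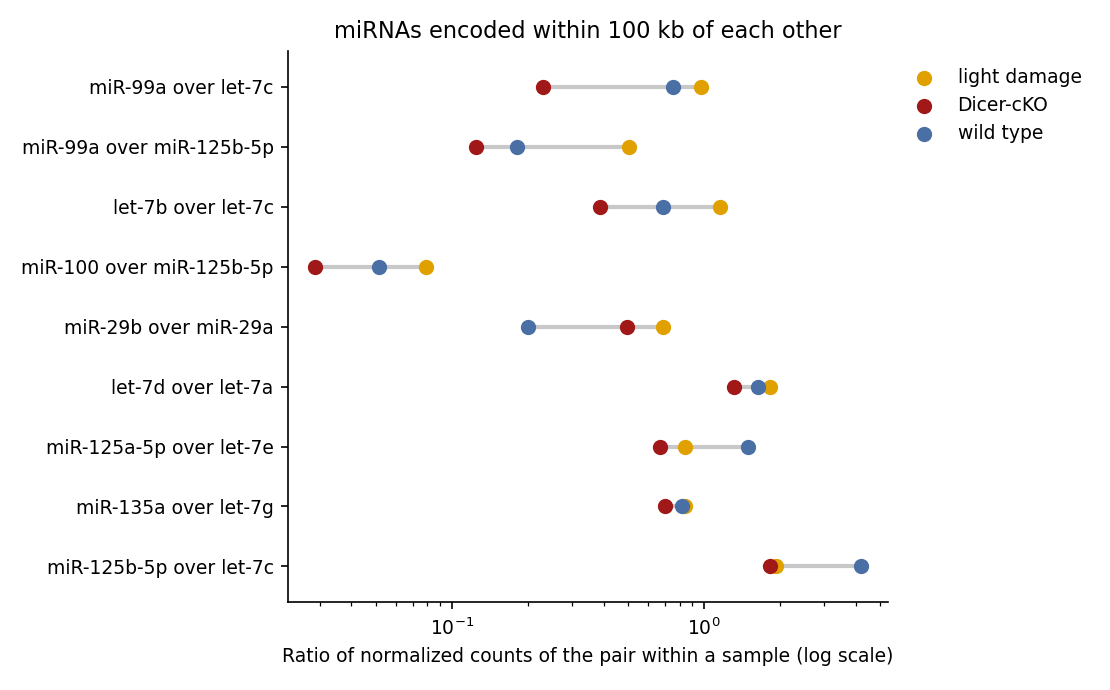
Counts of 1 miRNA divided by those of its neighbour in the same sample (log scale) for 9 pairs of miRNAs encoded within 100 kb on the same strand, in the LD, Dicer-cKO and wild type samples. miR-99a over let-7c is 0.229 in the Dicer-cKO sample against 0.974 after LD and 0.757 in wild type, whereas miR-125b-5p over let-7c is 1.93 after LD and 1.82 in Dicer-cKO MG, both below the 4.19 of wild type.

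The highest ratio among the miRNAs of mean at least 1000 was that of miR-720, an entry later withdrawn from miRBase because it matches a transfer RNA. It was counted at 172827 after LD, 10983 in Dicer-cKO and 23904 in wild type MG, a ratio of 15.7 (15.1–16.4), and it alone made up 36.9% of all miRNA counts of the LD sample. The LD pool was high and the other 2 were low. miR-1937a+b, a probe for entries that were likewise withdrawn as tRNA fragments, gave 6129, 1298 and 1094 counts, with a ratio of 4.72 (4.18–5.33). miR-1944, in the same list, went the other way relative to the median, with 2622, 3535 and 5024 counts and a ratio of 0.742 (0.678–0.811).

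The miR-29 family is known for repressing collagens and other matrix genes, and 2 of the 3 members listed for it were named. Both lay above the median of all members. The remaining member could not be named and may stand among the numbered miRNAs, so these values are not those of the whole family. miR-29b was counted at 7515 after LD, 2005 in Dicer-cKO and 1748 in wild type MG, a ratio of 3.75 (3.40–4.14). miR-29a was counted at 10969, 4052 and 8716, a ratio of 2.71 (2.52–2.91). For each, the LD sample was the highest of the 3 in the deposited values. miR-22 and miR-181a were the 2 named of 9 miRNAs listed for injury and gliosis, and both lay above the median. miR-22 had 4438, 1236 and 4916 counts and a ratio of 3.59 (3.17–4.08). The Dicer-cKO sample was far below the other 2 in the deposited values, whereas as a share of all normalized miRNA counts miR-22 took 0.947% after LD, 0.632% in Dicer-cKO and 0.627% in wild type MG. Among the numbered miRNAs of mean at least 1000, the highest ratios belonged to MIMAT0009429, with 2559 counts after LD and 401 in Dicer-cKO MG (6.38, 5.14–7.96), MIMAT0000537, with 1886 and 423 (4.46, 3.60–5.54), and MIMAT0000122, with 2354 and 763 (3.09, 2.62–3.63). Their wild type values were 632, 1046 and 2436. MIMAT0009429 and MIMAT0000537 were thus highest after LD, and MIMAT0000122 was about as high in wild type.

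At the other end stood miR-124, the miRNA most typical of neurons. It was counted at 5506 after LD, 12106 in Dicer-cKO and 1354 in wild type MG, a ratio of 0.455 (0.431–0.480) and a relative log2 ratio of −1.88. It was the only named miRNA at least 2-fold lower in the LD sample, and its ratio lay below 1 in 10 of the 12 scalings, the exceptions being those on the nmiR rows and on the ERCC rows, which are control RNAs. It took 1.18% of all miRNA counts after LD, 6.17% in Dicer-cKO and 0.173% in wild type MG. miR-124 was 1 of 9 neuronal miRNAs listed, and the others could not be named from the published bars. The same was so for the miRNAs listed for photoreceptors, immune cells, red blood cells and blood vessels. Any of these may stand among the numbered miRNAs, also among those of the lowest ratios. The part of other cells in these ratios was not tested.

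Also below the median were miR-16, a miRNA of the cell cycle, with 2732 counts after LD, 3358 in Dicer-cKO and 7260 in wild type MG (0.814, 0.743–0.890), and miR-335-5p, with 1702, 1311 and 3329 (1.30, 1.13–1.48). Numbered miRNAs of mean at least 1000 reached lower. MIMAT0000541 was counted at 626 after LD and 3433 in the Dicer-cKO sample, a ratio of 0.182 (0.159–0.209), and MIMAT0000212 at 414 and 1811, a ratio of 0.229 (0.192–0.270). The wild type sample held 285 and 363 counts of these, so the Dicer-cKO pool was the highest for both, and the LD pool lay between the others. MIMAT0000534 (721 and 1351 counts, ratio 0.534), MIMAT0000525 (1232 and 1576, ratio 0.782) and MIMAT0000536 (2624 and 2527, ratio 1.04) lay closer to 1. All 15 miRNAs at least 2-fold lower after LD were highest in the Dicer-cKO sample among the 3, which their choice by a high Dicer-cKO value largely sets, and over all 95 this sample was the highest for 18 in the deposited values, 55 with equal totals and 43 with equal totals without miR-720. Of the 39 at least 2-fold higher, which were likewise chosen by a high LD value, the LD sample was the highest for 19 and the wild type sample for 20 in the deposited values, against 26 and 51 of all 95. With equal totals the LD sample was the highest for 24 of the 39, the Dicer-cKO sample for 5 and the wild type sample for 10, against 24, 55 and 16 of all 95. Without miR-720 in the total the LD sample was the highest for 36 of the 39 and the wild type sample for 3, against 43 and 9 of all 95.

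**Figure D4:**
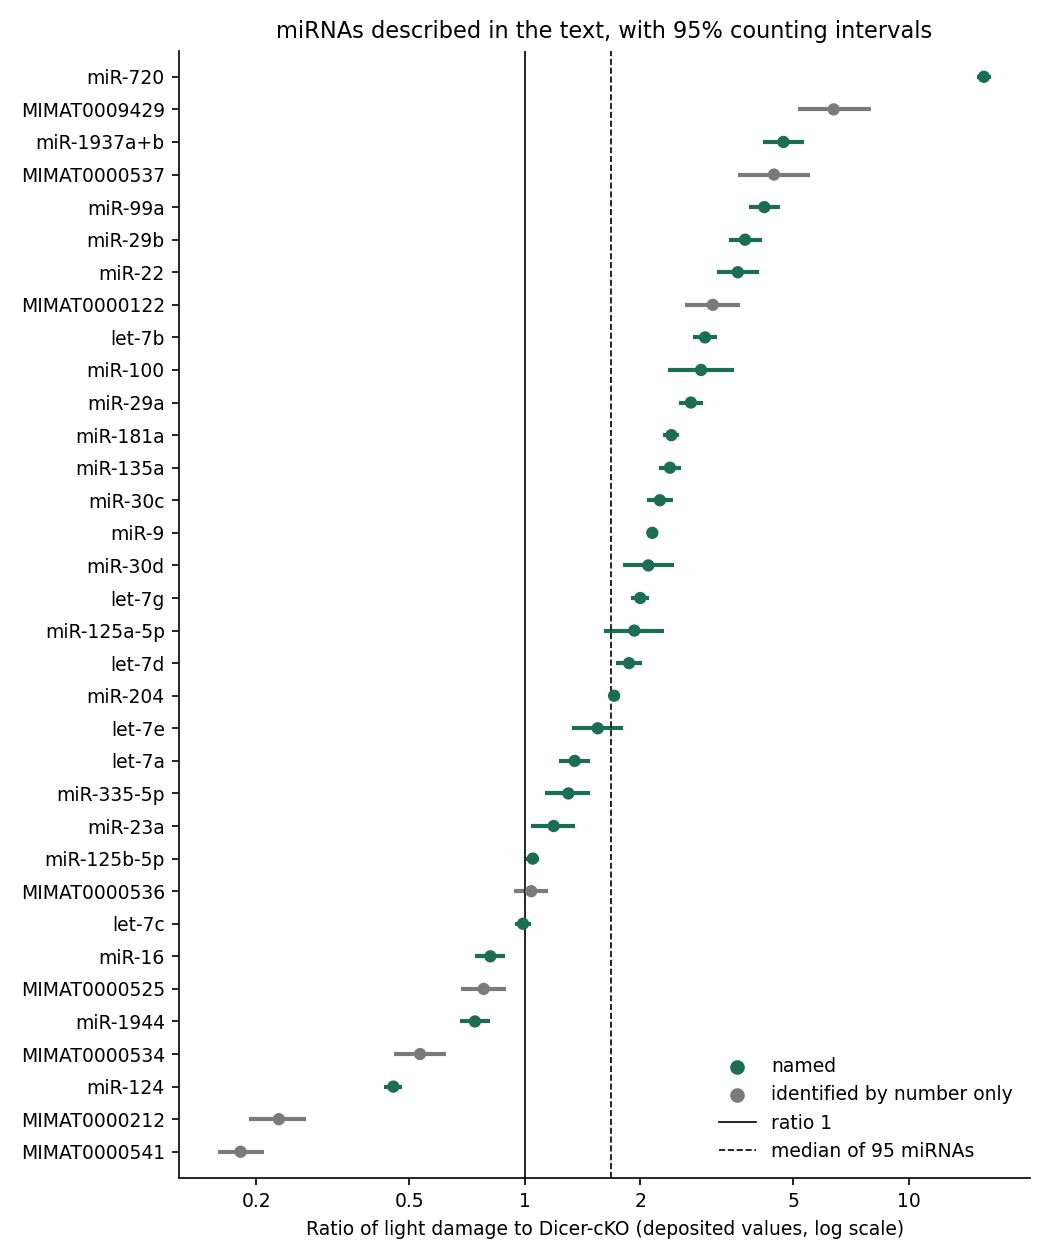
Ratio of LD to Dicer-cKO (points, log scale, deposited values) with 95% counting intervals (bars) for the 26 named miRNAs (green) and the 8 numbered miRNAs that the text gives by its rule (grey). Ratios run from 0.182 for MIMAT0000541 to 15.7 for miR-720, the solid line marks 1 and the dashed line the median of 1.68, and another scaling would shift all points by 1 common distance.

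The 2 highest and 2 lowest ratios among all 95 miRNAs were singled out here after their values were seen, and all 4 belonged to miRNAs of mean below 1000. MIMAT0009456 was counted at 274 after LD and 7 without Dicer, which gave 39.1 with an interval of 8.44 to 259, since only 2 counts before scaling stood behind the lower value. MIMAT0003496 followed with 257 and 16 counts (16.1, 5.53–54.1). In the opposite direction, MIMAT0000160 was counted at 36 and 697 (0.0516, 0.0303–0.0856) and MIMAT0000138 at 125 and 1267 (0.0987, 0.0730–0.129). These last 2 were the miRNAs with a ratio below 1 in all 12 scalings. Low counts limited the values of scarce miRNAs. The summed miRNA counts before scaling were 230232 in the LD sample and 44258 in the Dicer-cKO sample. The counting interval typically spanned 2.44-fold for means between 100 and 300 but 1.21-fold for means of at least 1000.

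Expressed as shares of all miRNA counts, computed before scaling and unaffected by it, the profiles differed in what filled them. miR-720 took 36.9% (36.7–37.1) of the counts after LD, 5.60% (5.39–5.82) in Dicer-cKO and 3.05% in wild type MG. The 7 mGliomiRs took 28.7%, 38.7% and 65.4%. Without miR-720 they took 45.5% (45.2–45.7) after LD and 41.0% (40.5–41.5) in Dicer-cKO MG, against 67.4% in wild type, so the order of the LD and Dicer-cKO samples turned on that 1 entry. The same was so for miR-204, at 17.6% and 16.4% without miR-720 and 11.1% and 15.5% with it. The share of the 6 let-7 members had an interval of 9.91% to 10.2% after LD, and it was 14.3% in Dicer-cKO and 10.9% in wild type MG. Without miR-720 it was 15.9%, 15.2% and 11.2%, so here too the order of the LD and Dicer-cKO samples turned. In the same order, miR-29a and miR-29b together took 3.95%, 3.09% and 1.33%, and without miR-720 they took 6.25%, 3.27% and 1.38%. The 576 miRNAs known by number alone held 8.99% of the normalized counts after LD, 19.7% in Dicer-cKO and 7.15% in wild type MG.

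**Figure D5:**
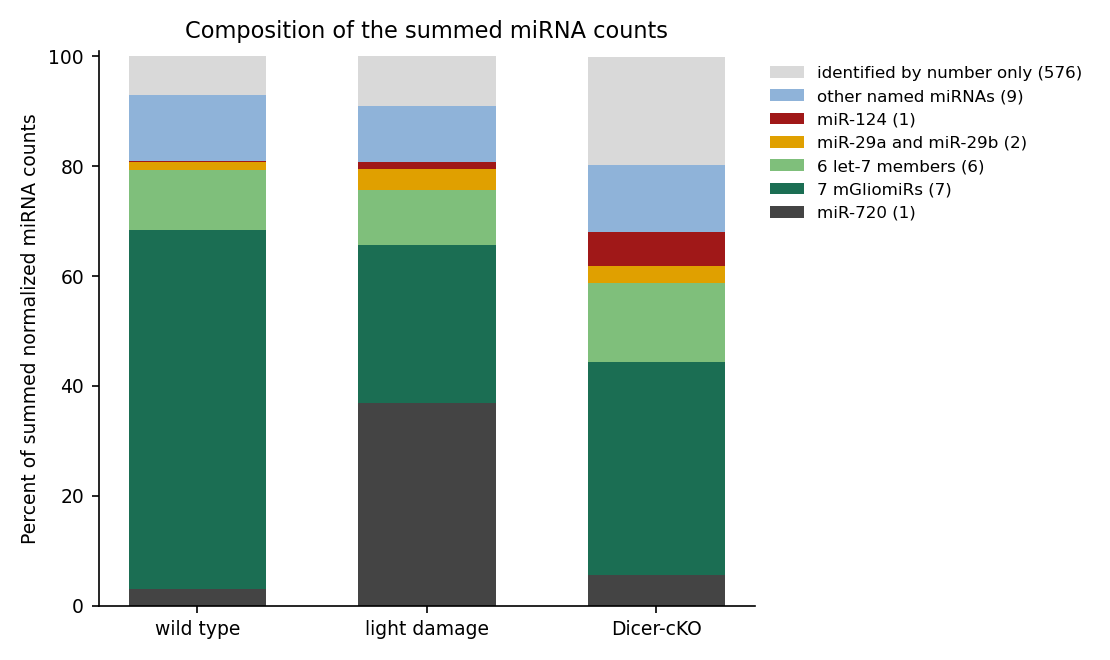
Share of the summed miRNA counts (percent, bars stacked to 100) taken by miR-720, the 7 mGliomiRs, 6 let-7 members, miR-29a and miR-29b, miR-124, 9 other named miRNAs and 576 miRNAs known by number, in the wild type, LD and Dicer-cKO samples. miR-720 fills 36.9% of the LD sample, and miRNAs known by number fill 19.7% of the Dicer-cKO sample.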

How the data were processed

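RNA of 3 pools of sorted MG, 1 per condition, was counted with a NanoString panel from 200 ng. The values the authors deposited are a signal, namely counts that nSolver 4.0 had corrected for background with negative controls and scaled to 4 housekeeping mRNAs (626 rows, 602 of them miRNAs). The factor of each sample, recovered from the rows that keep decimals, was 2.04 for LD, 4.42 for Dicer-cKO and 1.15 for wild type, and dividing by it returned whole counts plus the sample's own decimals, within 0.51 normalized counts, for 245 of 246, 243 of 243 and 340 of 341 miRNAs above the lowest value. By chance 50.1%, 23.1% and 88.3% would do so. Totals were 468576, 195642 and 783889 normalized counts. Intervals of ratios are exact Clopper-Pearson intervals at 95% on counts before scaling, and those of ratios of ratios are exact conditional ones (scipy 1.17.1). Recovery of the factors and the intervals of single ratios were checked on simulated data. No pseudocount was used.

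Members and lists were chosen with earlier results of these data known. Named in the text are the 10 highest means, the 10 highest and 10 lowest ratios of miRNAs of mean at least 1000, the miRNAs the study names from these data, and the listed family members and cell type miRNAs. Names were matched through published bars read by eye, within 0.619 points of percent change from wild type for 21 names and within 5.30 points for 5 increased ones, and the strand follows the unstarred older name. None of the lists for the miR-10, miR-26 and miR-17-92 families, the Dlk1-Dio3 cluster, photoreceptors, immune cells, red blood cells or blood vessels had a named member. Alternatives were 11 other scalings, other filters, pseudocounts, a further background subtraction and other fold limits. Tamoxifen was given on 3 days per the labels and on 4 per the methods. Python 3.11.15, numpy 2.4.6, pandas 2.3.3 and matplotlib 3.10.9 were used.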

Additional observations from a re-analysis of the deposited data

Results flagged for a closer look

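Of the 6 rows named nmiR, 3 carried a strong signal. They were not counted among the 602 miRNAs and served here only as 1 of the alternative references. Row nmiR00813.1 was at 9629.7 after LD, 70385.23 in Dicer-cKO and 14774.53 in wild type MG, 7.31 times as high in the Dicer-cKO as in the LD sample. Row nmiR00809.1 was at 4205.81, 31874.24 and 4060.08, a 7.58-fold excess in the Dicer-cKO sample, and row nmiR00811.1 at 353.11, 2045.01 and 532.86, a 5.79-fold excess. In these scaled values the Dicer-cKO sample was the highest in all of them. The values carry the housekeeping factors of 2.04 for LD, 4.42 for Dicer-cKO and 1.15 for wild type. Before that scaling each excess over the LD sample is smaller by a factor of 2.17. The place of the wild type sample before scaling was not computed for these rows. The sources used here do not say what these probes detect.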

How the results depend on the processing

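No paired analysis was possible because no condition has more than 1 pool. The median log2 ratio of LD to Dicer-cKO, 0.75 as deposited, was −0.51 with equal total miRNA counts and −0.11 with Rpl19 as the only reference, both reversed, and 0.07 with equal totals without miR-720. It was 1.06 with B2m, 1.46 with Gapdh, 1.87 before scaling, 2.19 with the ERCC rows and 3.52 with the nmiR rows as reference, and 1.03 over miRNAs of mean at least 1000. The 39 miRNAs at least 2-fold higher after LD became 6 with equal totals, 15 with equal totals without miR-720, 13 with the median set to 1, 23 with the 100 highest miRNAs, 12 with Rpl19, 59 with Gapdh, 69 before scaling, 76 with ERCC and 88 with nmiR rows. They became 17 at a mean of at least 1000 and 19 at a 3-fold limit. The 15 at least 2-fold lower became 36, 24 and 26 under the first 3 of these scalings, 26 with Rpl19, 7 with Gapdh and before scaling, 4 with ERCC and 1 with nmiR rows. They became 8 and 3 at means of at least 300 and 1000, 9 with 100 counts required in both samples, 47 with no filter and 7 at a 3-fold limit. Relative log2 ratios of single miRNAs and lists do not change with scaling. Of 717 values compared, which include those under the scalings that cannot change them, 702 kept their sign and 15 did not. All 15 changes fell under the 8 other filters, pseudocounts and backgrounds. They belonged to miR-204, let-7a, let-7d, let-7e, let-7g, miR-23a, miR-335-5p, the let-7 list and the miR-125 list. The farthest of these from the median in the main setting was miR-23a, at −0.50. The Dicer-cKO sample had the fewest summed miRNA counts before scaling, and there 3 counts before scaling equal 13.3 normalized counts.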
